A study of Mus musculus with 19 samples.

Results

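Matrix metalloproteinases (MMPs), the tissue inhibitors that block them (TIMPs) and the ADAMTS proteases, which carry a disintegrin-like domain and thrombospondin repeats, were described in mouse mammary glands and mammary tumors. Members were the protein-coding genes of the deposited count table whose symbols are Mmp, Timp or Adamts followed by a number, by way of their Ensembl identifiers. The table held 46078 genes, and 45 of them were members: 22 *Mmp* genes, 4 *Timp* genes and 19 *Adamts* genes. *Mmp1a* was not a member, because GENCODE vM21 lists it as a polymorphic pseudogene.

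MMPs are zinc proteases that cut collagens, elastin and other proteins of the extracellular matrix as well as cell-surface and secreted proteins, and most are made as inactive proenzymes. TIMPs bind the active site of MMPs, and TIMP3 also inhibits several ADAMTS proteases. ADAMTS proteases are secreted and cut large proteoglycans such as versican and aggrecan, trim procollagens or process other matrix proteins, and in the mammary gland both families take part in ductal branching, in the regrowth of fat after lactation and in the matrix around tumors.

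The study followed mammary tumors driven by wild-type ERBB2 in mice whose fibroblasts carried either wild-type or R172H mutant p53. RNA was sequenced from 19 samples in 5 groups: glands of wild-type mice (MG WT, n = 3), glands (MG N, n = 4) and tumors (T N, n = 4) of mice with wild-type fibroblast p53, and glands (MG NP, n = 4) and tumors (T NP, n = 4) of mice with mutant fibroblast p53. The MG N and MG NP glands came from tumor-bearing mice but held no malignant lesion, according to the study.

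Wild-type ERBB2 comes from the transgene MMTV-neu, which is active in mammary epithelial cells, and fibroblasts obtain Cre recombinase through Fsp-Cre. The T N samples and MG N replicate 1 carried MMTV-neu and Fsp-Cre. In MG N, replicates 2 to 4 had MMTV-neu with the unrecombined allele p53wm-R172H/+ and no Cre, so this group joins 2 genotypes. T N against MG N therefore also differs in Cre and in this allele, which cannot be told apart from the change of tissue. MG NP and T NP samples carried MMTV-neu, p53wm-R172H/+ and Fsp-Cre, which turns the allele into the mutant in cells with Cre. The mice with MMTV-neu were on a mixed FVB, C57 and BALB/c background, the strain of the wild-type mice was not given, and the sample labels hold no age, although the wild-type mice were described as age-matched. T NP replicates 1 and 2 share an animal-like number in their library names, so it is not certain that they came from 2 animals. The p-values therefore measure the spread between these samples.

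Each value below is a normalized count, the number of reads on a gene after the authors scaled the libraries to each other. Recovered reads per library ranged from 54677315 to 62645459 in MG WT (median 54753948), from 20899152 to 26373331 in MG N (median 23117630.5) and from 21467242 to 26888814 in MG NP (median 24226917). In the tumors they ranged from 23520971 to 27262440 in T N (median 24883534.5) and from 20972633 to 23234914 in T NP (median 22533156.5). Groups were compared on log2(normalized count + 1) with limma over all genes past a filter on low counts, and a gene was called at an adjusted p under 0.05 and at least a 2-fold change. Values in parentheses after a comparison are the log2 fold change with its standard error after ± and the adjusted p. Where a call depended on a single library, the log2 fold change without that library follows. Values of a group are listed in the order of replicate number.

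Marker genes of cell types differed between some of the groups. Summed over 8 white adipocyte markers, normalized counts were 2296, 3588 and 2981 in MG WT, 431910, 390900, 342070 and 437570 in MG N glands and 160120, 203880, 222650 and 455150 in MG NP, against 3750.4, 432, 9274 and 1812 in T N and 1344, 2478, 2172 and 1436 in T NP. *Fabp4* was the most abundant of them in MG N, *Cfd* in MG NP and *Lpl* in the other 3 groups. The 8 luminal epithelial markers summed to 72305, 79836 and 87669 in MG WT, 21891, 12198, 24497 and 13814 in MG N, 19880, 24704, 24005 and 8227 in MG NP, 95460, 172700, 90948 and 113900 in T N and 97399, 131990, 111140 and 112960 in T NP. The wild-type glands were thus rich in epithelial and poor in fat transcripts, while the glands of tumor-bearing mice held the reverse, and no defining marker of either list was at 0 in any group.

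The lists for other cells also moved. The 10 fast skeletal muscle markers (none at 0, led by *Myh1* in MG WT and *Myh4* elsewhere) summed to 339010, 2491800, 10415 and 1363500 in MG NP, 11542, 15675, 7997 and 321 in MG N glands and 117, 97.1 and 106 in MG WT, so that MG NP replicates 1, 2 and 4 held much muscle RNA. In the tumors the same sum was 3141, 266, 26658 and 235 in T N and 99.8, 1356, 5377 and 5782 in T NP. The 8 fibroblast markers, led by *Col3a1* in each group, summed to 39080, 64411 and 58030 in MG WT, 131800, 467440, 265730 and 159280 in MG N, 62075, 70853, 145060 and 83977 in MG NP, 42433, 29172, 267890 and 38176 in T N and 26844, 36784, 55658 and 36182 in T NP. T N replicate 3 stood far above the other T N tumors on this list, and MG N replicate 2 was the highest of the MG N glands. The same libraries led the members: T N replicate 3 was the highest of its group for 24 of the 38 members above the floor of 3 reads and the lowest for 0, and MG N replicate 2 was the highest for 28 of 41. How often these libraries were the highest over all genes was not counted, so this is not read as a trait of the members.

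Of the 45 members, 37 passed the filter when MG N was set against MG WT, 37 when MG NP was, 37 in T N against MG N and 36 in T NP against MG NP. In MG N against MG WT, 12 were called higher and 9 lower, where 19.1% of all tested genes were called higher and 17.9% lower. For MG NP against MG WT the counts were 5 higher and 10 lower, against 16.4% and 16.2% of all genes. They were 3 and 8 without MG WT replicate 1, beside 2404 and 2524 of all genes, and 8 and 10 with DESeq2, beside 3977 and 3094. In T N against MG N, 5 members were called higher, where 12.8% of all genes were, and 20 lower, where 22.3% of all genes were. In T NP against MG NP the counts were 7 higher, against 14.7%, and 19 lower, against 24%. The median log2 fold change of the members tested was -0.01 in MG N and -0.27 in MG NP against MG WT, beside 0.02 for all genes in both. It was -1.61 in T N against MG N, beside -0.05 for all genes, and -1.63 in T NP against MG NP, beside -0.07. Members passed the filter partly through the group where they were high, and both gland comparisons share the MG WT samples. Without T N replicate 3 the counts in T N against MG N were 5 higher and 19 lower, beside 2318 and 4419 of all 18528 genes. Without MG N replicate 2 they were 9 and 16, beside 2126 and 3739 of all 18355 genes. With the muscle-rich MG NP replicates 2 and 4 left out together, MG NP against MG WT gave 5 higher and 9 lower, and T NP against MG NP 7 and 21. Of all genes these fits called 3599 and 3109 of 19272, and 2515 and 4556 of 18934. Both kept MG NP replicate 1, whose muscle sum was 339010, so muscle RNA was not removed.

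**Figure D1:**
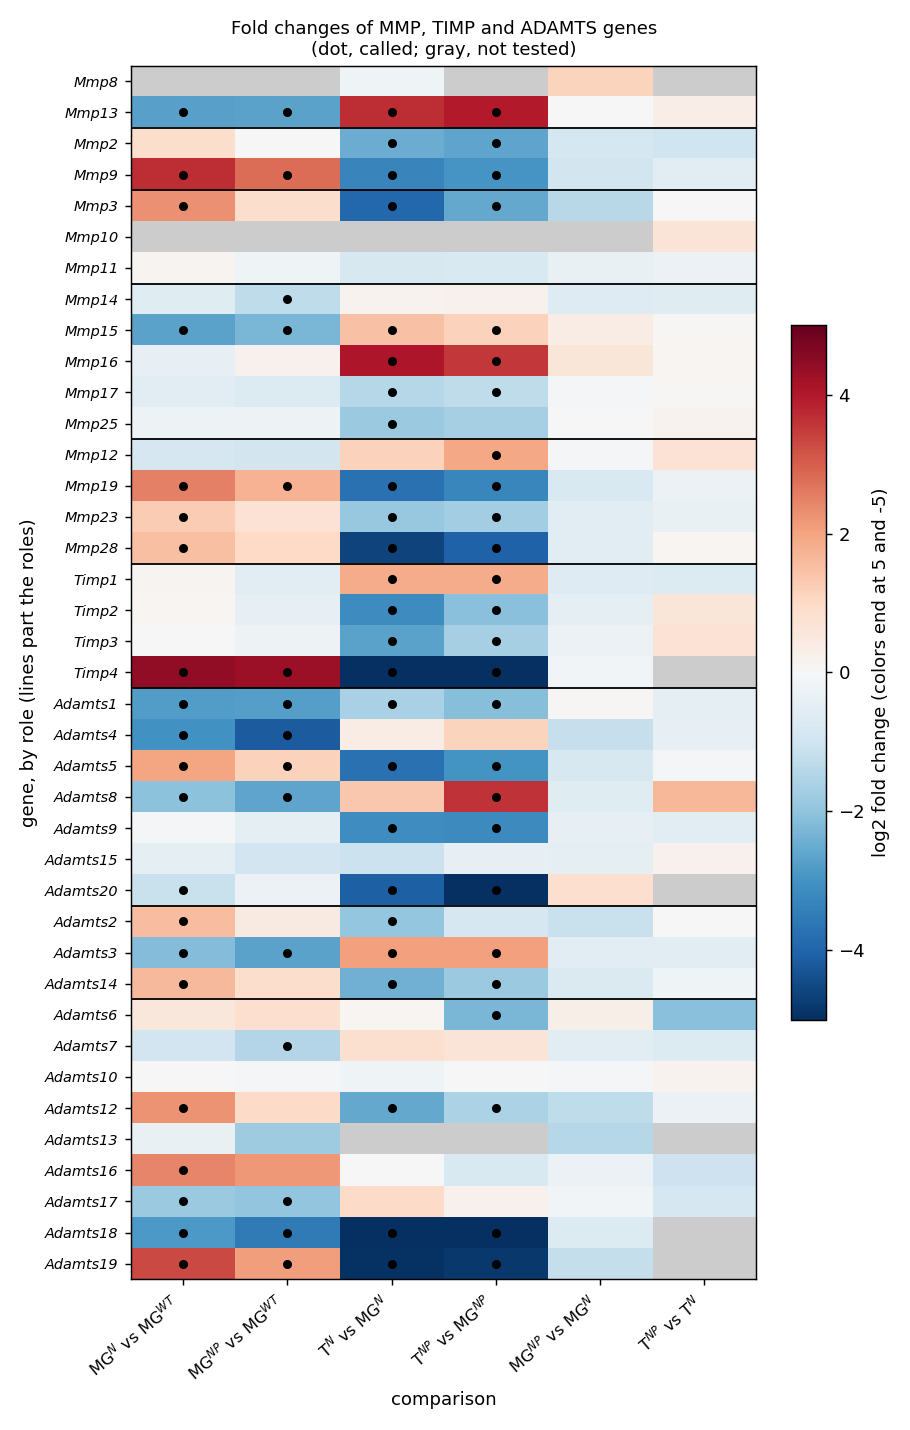
Log2 fold changes of the members that passed the filter in at least 1 of 6 comparisons, ordered by role, with dots at called results. In the tumors 20 members were called lower in T N against MG N and 19 in T NP against MG NP, while the last pair of columns, which compare the genotypes, hold 0 dots.

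Levels of different genes were compared as normalized counts per kilobase of exon. Summed over the family, *Mmp* genes reached 4471 ± 708 (mean ± SD) in MG WT, 6620.3 ± 1778 in MG N, 3638 ± 486 in MG NP, 2442 ± 1043 in T N and 1926 ± 363 in T NP. The sum of *Timp* genes was 3136 ± 538 in MG WT, 3720.1 ± 1316 in MG N and 2825 ± 238 in MG NP, and 893 ± 688 in T N and 879 ± 214 in T NP. For *Adamts* genes it was 5495 ± 837 in MG WT, 2824 ± 938 in MG N, 1862 ± 254 in MG NP, 1289 ± 346 in T N and 1069.7 ± 146 in T NP. The inhibitor sum was lower in each tumor than in each gland, with T N replicate 3 (677, 443, 1916 and 538 in the T N tumors) closest to the glands, whose lowest value was 2587.

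The leading member differed between groups. In MG WT it was *Adamts1*, at a mean of 3273 normalized counts per kb, followed by *Timp2* at 1727 and *Mmp15* at 1464. In MG N the first 3 were *Mmp2* at 2312, *Mmp3* at 2193 and *Timp2* at 1905, and in MG NP they were *Timp2* at 1319.8, *Mmp2* at 1178 and *Timp3* at 1103. Both tumor groups were led by membrane-type MMPs: *Mmp15* reached 646 in T N and 660.5 in T NP, and *Mmp14* 588 and 405. Neighbors in these orders often lay within their spread, for example *Mmp2* and *Mmp3* in MG N.

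**Figure D2:**
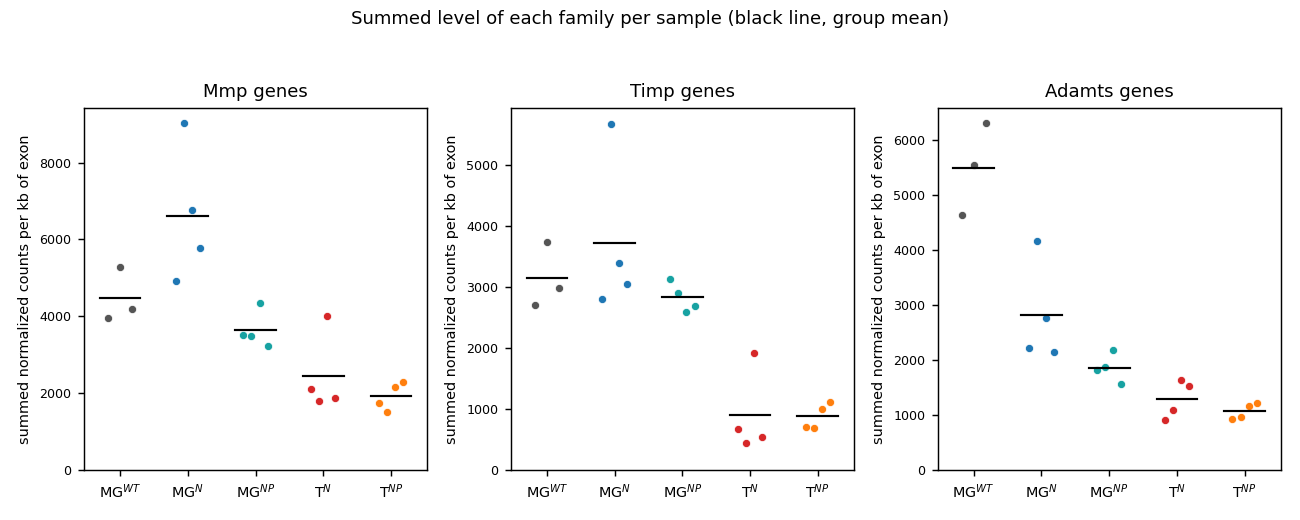
Summed normalized counts per kb of exon for *Mmp*, *Timp* and *Adamts* genes in each sample. The mean *Adamts* sum was 5495 in MG WT and 1069.7 in T NP, and the mean *Timp* sum 3720.1 in MG N and 893 in T N.

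The collagenases cut the triple helix of fibrillar collagens. *Mmp13* (collagenase 3) had 80.2, 99.6 and 67.7 normalized counts in MG WT, 21.7, 8.05, 15.965 and 6.18 in MG N glands and 14.3, 9.99, 8.66 and 15.5 in MG NP. Tumor counts were 317, 104, 188 and 106 in T N and 86.3, 128, 229.9 and 619 in T NP. Every wild-type gland thus lay above every gland of tumor-bearing mice, and every tumor above those glands too, with T NP replicate 4 the highest sample. *Mmp13* fell in MG N against MG WT (-2.71 ± 0.44, adjusted p 0.00101) and in MG NP against MG WT (-2.69 ± 0.32, adjusted p 0.000777), and rose in T N against MG N (3.68 ± 0.50, adjusted p 0.000590) and in T NP against MG NP (3.97 ± 0.57, adjusted p 0.000584). *Mmp8* (neutrophil collagenase) ranged from 0.488 to 52.4 normalized counts outside MG NP and had 278, 7.14, 9.75 and 14.2 in MG NP. It passed the filter in T N against MG N, in MG NP against MG N and in the interaction test, and was not called. MG NP replicate 1 alone was high, and the same library had the highest sum of 8 neutrophil markers, 10373, 341, 674 and 504 in MG NP, with *S100a9* the most abundant and none at 0. In the other groups this sum was 245, 176 and 386 in MG WT, 620.3, 640.2, 425 and 1415 in MG N, 225, 494, 306 and 358 in T N (with *Ly6g* at 0) and 181, 159.8, 231 and 303 in T NP (with *Camp* and *Elane* at 0), and the part of neutrophil RNA in the *Mmp8* level was not tested. *Mmp1b*, a rodent counterpart of interstitial collagenase, had 0 counts in 18 libraries and 3.50 in T N replicate 4.

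The immediate-early transcripts, which cells switch on within minutes of a stimulus, separated the wild-type glands from all other samples. Summed over 10 such genes, normalized counts were 347060, 452820 and 444840 in MG WT, 3094, 6736, 6896 and 3089.6 in MG N, 4152, 8630.0, 6484 and 4857 in MG NP, 6778, 10775, 7972 and 9204 in T N and 8165, 9325, 8618 and 10383 in T NP. In MG WT *Fos* was the most abundant, in T N *Junb* and in the other 3 groups *Jun*, and 10 of 10 genes were called lower both in MG N and in MG NP against MG WT. Their part in the differences between MG WT and other glands, such as those of *Mmp13*, *Adamts1* and *Adamts4*, was not tested. Depth and tissue make-up also go with this grouping and cannot be told apart from it.

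The gelatinases digest denatured collagen and basement membrane collagen. *Mmp2* (gelatinase A, made mostly by stromal cells) had 3120.0, 6169.6 and 3113 normalized counts in MG WT, 4641, 13438, 6894 and 6203 in MG N, 4121, 3915, 4296 and 3547 in MG NP, 942, 478, 3482 and 1699 in T N and 496, 618, 836 and 647 in T NP. MG N replicate 2 was the highest gland and T N replicate 3 the highest tumor, and no tumor reached the glands with the same fibroblast p53. The level of *Mmp2* fell in T N against MG N (-2.49 ± 0.58, adjusted p 0.00710) and in T NP against MG NP (-2.63 ± 0.17, adjusted p 1.31e-05). It was not called in MG N against MG WT (0.88 ± 0.38, adjusted p 0.0769), where it would be called at 1.21 without MG WT replicate 2 and 1.09 without MG N replicate 1, nor in MG NP against MG WT (0.02 ± 0.25, adjusted p 0.960). *Mmp9* (gelatinase B, made by myeloid cells among others) had 38.8, 93.2 and 58.4 in MG WT, 538, 1077, 687 and 907 in MG N, 736, 196, 417 and 493 in MG NP, 37.5, 67.4, 250.4 and 58.4 in T N and 31.4, 57.3, 79.2 and 56.2 in T NP. All 8 glands of tumor-bearing mice were above the wild-type glands, and apart from T N replicate 3, which lay above MG NP replicate 2, all tumors were below them. *Mmp9* rose in MG N (3.68 ± 0.34, adjusted p 5.74e-05) and MG NP (2.78 ± 0.49, adjusted p 0.00361) against MG WT, and fell in T N against MG N (-3.29 ± 0.54, adjusted p 0.00131) and T NP against MG NP (-2.94 ± 0.43, adjusted p 0.000654). The 8 macrophage markers, led by *Lyz2* in each group with none at 0, summed to 7034, 10207 and 9022 in MG WT, 37624, 61268, 28199 and 46031 in MG N, 36225, 19477, 39868 and 21891 in MG NP, 17398, 21015, 32888 and 11988 in T N and 15860, 16843, 17763 and 26793 in T NP. Their part in the *Mmp9* result was not tested, and in bulk tissue fewer cells of a type and less RNA per cell cannot be told apart.

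Among the stromelysins, *Mmp3* encodes stromelysin 1, which cuts proteoglycans and basement membrane proteins and activates other MMPs. *Mmp3* had 444, 1341 and 863 normalized counts in MG WT, 3527, 3671, 4923 and 3677 in MG N glands and 1051, 1652, 2836 and 1003 in MG NP. Its tumor values were 252, 143, 974 and 127 in T N and 155, 273, 273 and 366 in T NP. The 4 MG N glands lay above all other samples, and T N replicate 3 was the 1 tumor near the lower glands. *Mmp3* rose in MG N against MG WT (2.29 ± 0.33, adjusted p 0.000598), was not called in MG NP against MG WT (0.90 ± 0.48, adjusted p 0.157), and fell in T N against MG N (-3.91 ± 0.57, adjusted p 0.000797) and in T NP against MG NP (-2.54 ± 0.38, adjusted p 0.000656). *Mmp11* (stromelysin 3) had 134, 778 and 142 in MG WT, 182, 557, 219.8 and 249 in MG N, 264, 194, 110.5 and 368 in MG NP, 186, 127, 237 and 103 in T N and 93.1, 72.0, 204 and 179 in T NP. All groups overlapped, MG WT replicate 2 and MG N replicate 2 were the highest, and no comparison was called. Log2 fold changes were 0.15 in MG N and -0.20 in MG NP against MG WT, -0.81 in T N against MG N and -0.77 in T NP against MG NP. The gland values depended on single libraries: without MG WT replicate 2 they were 0.98 in MG N and 0.63 in MG NP. Without MG WT replicate 1 they were -0.28 and -0.64, and none of these was called. *Mmp10* (stromelysin 2) had at most 1.08 normalized counts in any gland and 4.67 to 87.4 in the tumors, and passed the filter in T NP against T N and in the interaction test alone.

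**Figure D3:**
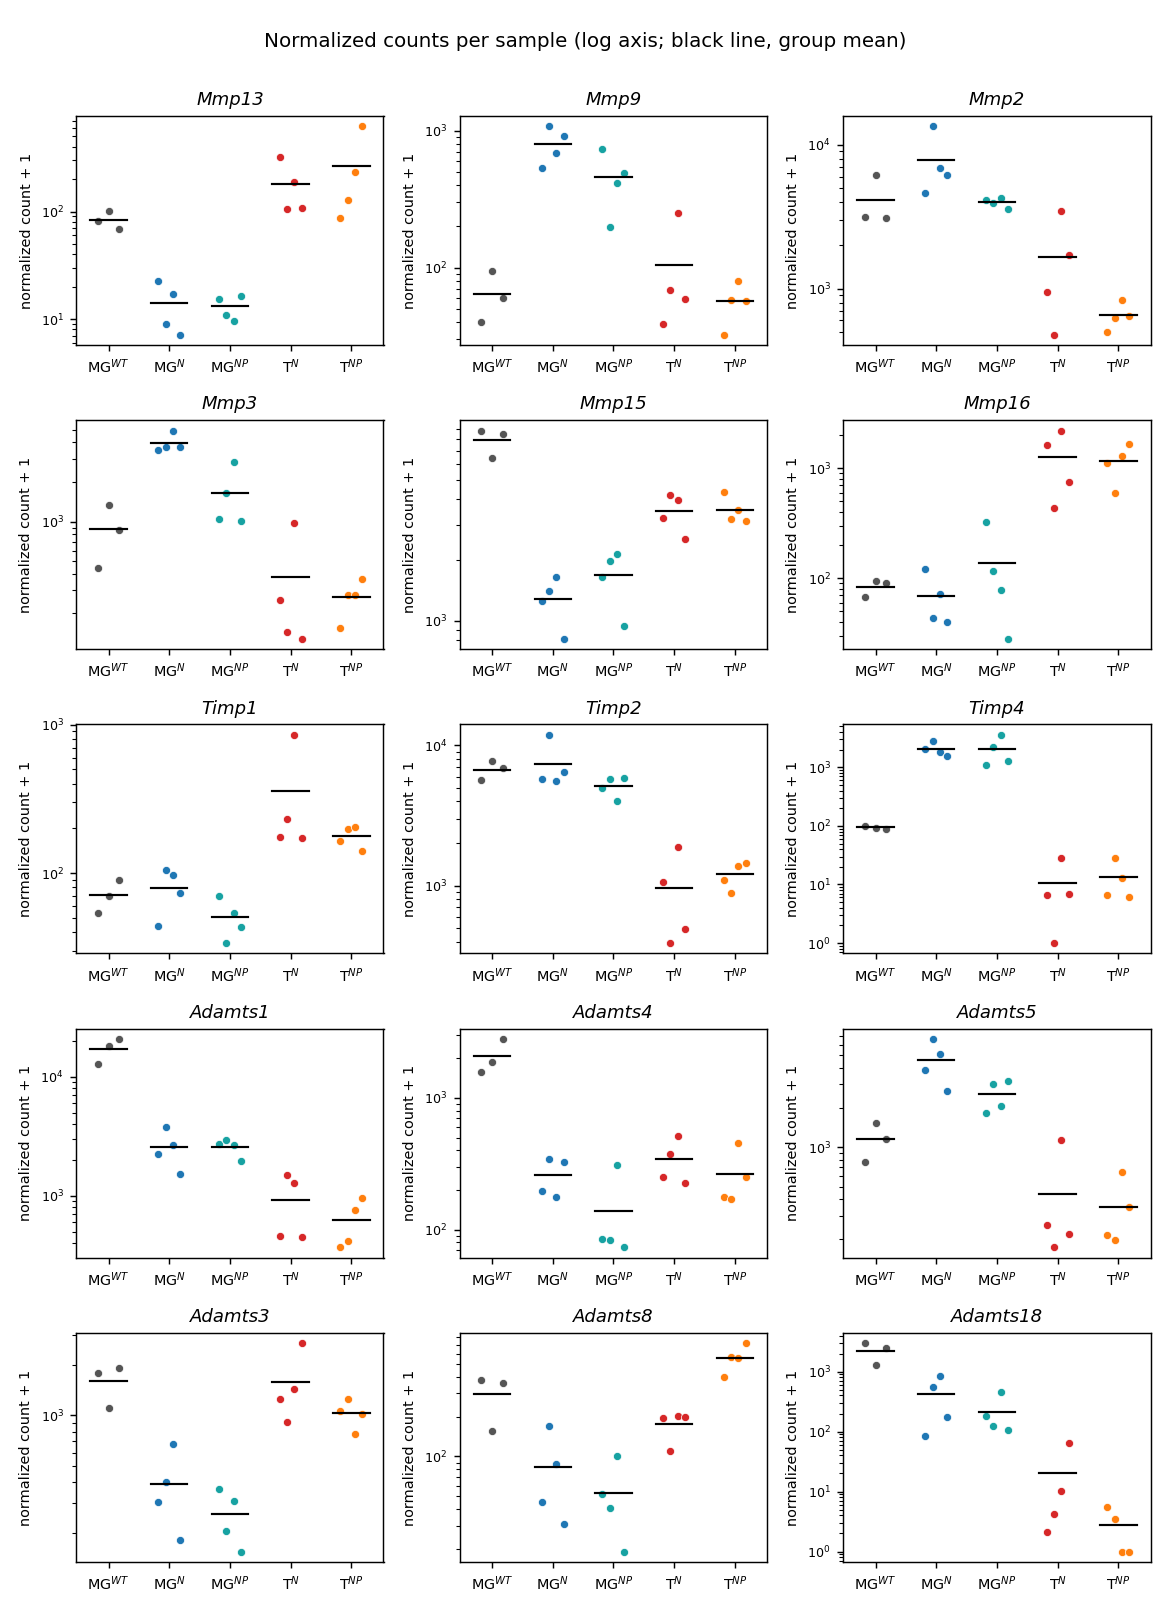
Normalized counts of 15 members in each sample by group, on log axes, with group means as lines. Mean *Timp4* was 2064 in MG N and 9.70 in T N, while mean *Mmp16* was 68.5 in MG N and 1254 in T N.

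The membrane-anchored MMPs act at the cell surface. *Mmp14* (MT1-MMP), which activates proMMP2, had 4550.0, 4919 and 4395 normalized counts in MG WT, 1829, 5118, 3170.5 and 2796 in MG N, 2141, 1907, 1878 and 1840.1 in MG NP, 3398, 2907, 4682 and 3031 in T N and 1628, 1586, 3369 and 3081 in T NP. The MG NP glands were all below the wild-type glands, whereas the tumors overlapped the glands with the same fibroblast p53. *Mmp14* fell in MG NP against MG WT (-1.25 ± 0.11, adjusted p 0.000305), while MG N against MG WT (-0.61 ± 0.30, adjusted p 0.107), T N against MG N (0.19 ± 0.30, adjusted p 0.620) and T NP against MG NP (0.23 ± 0.26, adjusted p 0.475) were not called. *Mmp15* (MT2-MMP) had 8795, 6452 and 8450.2 in MG WT, 1257, 1406, 1639 and 813 in MG N, 1654, 1967, 2152 and 936 in MG NP, 3223, 4188, 3989 and 2544 in T N and 4368, 3206, 3546 and 3139 in T NP. The 3 wild-type glands were the highest samples, all tumors came next, and all glands of tumor-bearing mice were below the tumors, where the summed luminal markers were highest in tumors, then in wild-type glands. *Mmp15* fell in MG N (-2.66 ± 0.24, adjusted p 5.06e-05) and MG NP (-2.29 ± 0.29, adjusted p 0.00109) against MG WT, and rose in T N against MG N (1.47 ± 0.24, adjusted p 0.00147) and in T NP against MG NP (1.14 ± 0.26, adjusted p 0.00556). The last of these was under 2-fold, at 0.88 without MG NP replicate 4, and whether the luminal epithelial share moves *Mmp15* was not tested.

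*Mmp16* (MT3-MMP) is another membrane-anchored member. It had 66.1, 92.7 and 89.9 normalized counts in MG WT, 121, 42.5, 71.4 and 39.1 in MG N glands and 323, 114, 76.9 and 27.1 in MG NP, and 1626, 432, 2206 and 754 in T N and 1127, 597, 1298 and 1676 in T NP. Every tumor lay above every gland, with T N replicate 2 the lowest tumor and MG NP replicate 1 the highest gland. *Mmp16* rose in T N against MG N (4.05 ± 0.56, adjusted p 0.000611) and in T NP against MG NP (3.53 ± 0.67, adjusted p 0.00242), and was not called in MG N (-0.41 ± 0.40, adjusted p 0.413) or MG NP (0.20 ± 0.74, adjusted p 0.842) against MG WT. *Mmp17* (MT4-MMP), anchored by a lipid, ranged from 52.9 to 159.6 normalized counts in glands and from 13.7 to 51.5 in tumors. It fell in T N against MG N (-1.42 ± 0.44, adjusted p 0.0262), a call that was lost at -1.32 without MG N replicate 2, -1.25 without MG N replicate 3 and -1.48 without MG N replicate 4, and in T NP against MG NP (-1.27 ± 0.35, adjusted p 0.0144). *Mmp25* (MT6-MMP, a leukocyte enzyme) ranged from 9.99 to 257 in glands, with the highest value in MG NP replicate 1, and from 4.99 to 39.7 in tumors. Its call in T N against MG N (-1.87 ± 0.66, adjusted p 0.0417) came with overlapping groups and was lost at -1.98 without MG N replicate 2, -1.89 without MG N replicate 3, -1.47 without MG N replicate 4, -1.61 without T N replicate 1, -1.51 without T N replicate 2 and -1.93 without T N replicate 3. In T NP against MG NP *Mmp25* was not called (-1.66 ± 0.96, adjusted p 0.168), though it was at -2.51 with DESeq2 and at -3.27 without MG NP replicates 2 and 4. *Mmp24* (MT5-MMP) ranged from 1.46 to 9.38 in MG WT and had at most 4.28 elsewhere, and did not pass the filter.

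Of the other MMPs, *Mmp19* had 209, 288 and 635 normalized counts in MG WT, 1818, 2671, 1736 and 1605 in MG N, 900.4, 1079, 1114 and 1485 in MG NP, 105, 66.4, 557 and 106 in T N and 91.9, 129, 122 and 126 in T NP. This secreted protease was highest in the MG N glands, then MG NP, and T N replicate 3 was the 1 tumor within the range of the wild-type glands. *Mmp19* rose in MG N (2.51 ± 0.36, adjusted p 0.000559) and MG NP (1.74 ± 0.37, adjusted p 0.00822) against MG WT and fell in T N against MG N (-3.74 ± 0.58, adjusted p 0.00108) and T NP against MG NP (-3.26 ± 0.20, adjusted p 1.18e-05). *Mmp28* (epilysin, found in epithelia and other tissues) had 272, 322 and 245 in MG WT, 583, 1053, 706 and 916 in MG N, 371, 537, 403 and 1193 in MG NP, 27.3, 16.9, 56.6 and 33.8 in T N and 29.1, 35.4, 37.7 and 31.2 in T NP. No tumor reached any gland, and MG NP replicate 4 was the highest sample. *Mmp28* rose in MG N against MG WT (1.51 ± 0.22, adjusted p 0.000577), was not called in MG NP against MG WT (0.99838 ± 0.40, adjusted p 0.0756, with 0.63 without MG NP replicate 4, and called at 1.19 with DESeq2), and fell in T N against MG N (-4.65 ± 0.37, adjusted p 7.19e-05) and T NP against MG NP (-4.03 ± 0.37, adjusted p 6.08e-05).

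*Mmp23*, a membrane-tethered protease, ranged from 125 to 564 normalized counts in glands and from 45.3 to 358 in tumors, with T N replicate 3 the highest tumor. It rose in MG N against MG WT (1.25 ± 0.36, adjusted p 0.0161), a call lost at 1.18 without MG WT replicate 1, 1.18 without MG WT replicate 3 and 0.99705 without MG N replicate 2, and was past the p threshold but under 2-fold in MG NP against MG WT (0.72 ± 0.24, adjusted p 0.0419). In T N against MG N *Mmp23* fell (-1.90 ± 0.65, adjusted p 0.0364), with overlapping groups. That call was lost at -1.65 without MG N replicate 2, -1.95 without MG N replicate 3 and -1.82 without MG N replicate 4. It was also lost at -1.73 without T N replicate 1, -1.58 without T N replicate 2 and -1.71 without T N replicate 4. *Mmp23* fell in T NP against MG NP too (-1.72 ± 0.25, adjusted p 0.000535). *Mmp12* (macrophage elastase) ranged from 124 to 501 in glands, 345 to 713 in T N and 416 to 1064 in T NP. It rose in T NP against MG NP (1.94 ± 0.35, adjusted p 0.00193). In T N against MG N it was not called (1.14 ± 0.46, adjusted p 0.0655), though it was at 1.56 without MG N replicate 2, and it was not called in MG N (-0.86 ± 0.46, adjusted p 0.144) or MG NP (-0.92 ± 0.28, adjusted p 0.0315) against MG WT, where it would be called at -1.28 without MG N replicate 2 and at -1.04 without MG NP replicate 1 and -1.04 without MG NP replicate 2. *Mmp7* (matrilysin) had at most 7.63 in any library, *Mmp21* at most 8.96 and *Mmp27* at most 17.2, and none of these 3 passed the filter. *Mmp20* (enamelysin, a tooth enzyme) was at 0 in all 19 libraries.

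The inhibitors parted into 3 patterns. *Timp1* had 52.9, 69.3 and 88.9 normalized counts in MG WT, 43.3, 105, 95.8 and 72.1 in MG N, 68.7, 32.8, 53.1 and 42.6 in MG NP, 175, 229.7, 852 and 170.4 in T N and 164, 198, 203 and 139.8 in T NP. Every tumor was above every gland, and T N replicate 3 was the highest sample. *Timp1* rose in T N against MG N (1.87 ± 0.54, adjusted p 0.0186), a call lost at 1.61 without MG N replicate 1, and in T NP against MG NP (1.85 ± 0.29, adjusted p 0.000815), but was not called in MG N (0.12 ± 0.35, adjusted p 0.786) or MG NP (-0.52 ± 0.33, adjusted p 0.229) against MG WT. *Timp2*, which also helps MT1-MMP to activate proMMP2, had 5634, 7703 and 6850.4 in MG WT, 5724, 11895, 5608 and 6456 in MG N, 4984, 5712, 4009.7 and 5861 in MG NP, 1054, 389.9, 1896 and 491 in T N and 1106, 884, 1392 and 1461 in T NP. Glands of the 3 groups overlapped and all tumors were below all of them. *Timp2* fell in T N against MG N (-3.16 ± 0.49, adjusted p 0.00105) and in T NP against MG NP (-2.10 ± 0.20, adjusted p 6.65e-05), and was not called in MG N (0.08 ± 0.27, adjusted p 0.817) or MG NP (-0.39 ± 0.18, adjusted p 0.111) against MG WT.

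*Timp3*, which is bound to the matrix, had 9566, 13558 and 8962 normalized counts in MG WT, 7584, 16376, 12406 and 8468 in MG N, 12862, 8353, 7229 and 7495 in MG NP, 1694, 684, 3784 and 1786 in T N and 1937, 1914, 3359 and 4764 in T NP. As for *Timp2*, all tumors were below all glands, with T NP replicate 4 the highest tumor. *Timp3* fell in T N against MG N (-2.67 ± 0.48, adjusted p 0.00202) and T NP against MG NP (-1.65 ± 0.32, adjusted p 0.00280), and was not called in MG N (0.02 ± 0.28, adjusted p 0.949) or MG NP (-0.27 ± 0.25, adjusted p 0.400) against MG WT. *Timp4* had 99.4, 92.7 and 86.8 in MG WT, 2023, 2820.4, 1861 and 1550.0 in MG N, 1096, 2205, 3599 and 1266 in MG NP, 5.68, 0, 27.3 and 5.84 in T N and 5.61, 26.8, 11.7 and 4.99 in T NP. The glands of tumor-bearing mice were far above the wild-type glands, which in turn were above all tumors, and T N replicate 2 was at 0. *Timp4* rose in MG N (4.42 ± 0.20, adjusted p 2.13e-06) and MG NP (4.28 ± 0.40, adjusted p 0.000341) against MG WT, and fell in T N against MG N (-8.39 ± 0.85, adjusted p 0.000169) and T NP against MG NP (-7.39 ± 0.56, adjusted p 2.69e-05). The white adipocyte sums given above were also high in MG N and MG NP and low in the other groups, 8 of 8 of these markers were called in the direction of *Timp4* in each of the 4 comparisons, and their part in it was not tested.

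As a share of the summed *Timp* level per kb, *Timp1* made up 2.55% ± 0.705 (mean ± SD) in MG WT, 2.42% ± 0.637 in MG N, 1.96% ± 0.545 in MG NP, 43.3% ± 13.4 in T N and 23.8% ± 7.59 in T NP. For *Timp2* the share was 55.2% ± 3.40 in MG WT, 50.9% ± 5.64 in MG N, 46.8% ± 7.77 in MG NP, 27.9% ± 8.18 in T N and 35.6% ± 3.26 in T NP. For *Timp3* the share was 41.7% ± 4.101 in MG WT, 37.01% ± 5.39 in MG N and 38.6% ± 7.995 in MG NP. In the tumors the *Timp3* share was 28.7% ± 9.37 in T N and 40.3% ± 8.71 in T NP. The portion of *Timp1* was thus much larger in tumors than in glands, while *Timp2* and *Timp3* remained large parts of the mix in tumors. By mean share *Timp2* led in each gland group, *Timp1* in T N and *Timp3* in T NP. The lead in T NP lay within the spread. *Timp4* made up 9.68% ± 1.78 in MG N and 12.6% ± 7.89 in MG NP, and 0.514% ± 0.103 in MG WT.

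Among the ADAMTS proteases that cut large proteoglycans, *Adamts1* had 12851, 18360 and 20852 normalized counts in MG WT, 2226, 3763, 2698 and 1534 in MG N, 2703, 2975, 2671 and 1949 in MG NP, 460.1, 1508, 1272 and 446 in T N and 368, 417, 755 and 948 in T NP. The groups formed steps with wild-type glands on top, then the other glands, then the tumors, with no overlap of any tumor with a gland. *Adamts1* fell in MG N (-2.81 ± 0.30, adjusted p 0.000124) and MG NP (-2.74 ± 0.22, adjusted p 0.000186) against MG WT, and fell in T N against MG N (-1.61 ± 0.46, adjusted p 0.0173) and T NP against MG NP (-2.14 ± 0.31, adjusted p 0.000577). It made up 59.0% ± 5.85 of the summed *Adamts* level per kb in MG WT, 16.964% ± 2.48 in MG N and 10.6% ± 3.38 in T NP. *Adamts4* (aggrecanase 1) had 1561, 1882 and 2804 in MG WT, 196, 342, 175 and 322 in MG N, 83.9, 82.8, 309 and 72.3 in MG NP, 248, 374, 512 and 226 in T N and 177, 168, 457 and 248 in T NP. Wild-type glands were above all other samples, and MG NP replicate 3 was well above the other MG NP glands. *Adamts4* fell in MG N (-3.02 ± 0.30, adjusted p 8.35e-05) and MG NP (-4.16 ± 0.52, adjusted p 0.000968) against MG WT, and was not called in T N against MG N (0.38 ± 0.34, adjusted p 0.373) or T NP against MG NP (1.10 ± 0.52, adjusted p 0.0978), where it was called at 1.59 without MG NP replicate 3.

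*Adamts5* (aggrecanase 2) went the other way. It had 765, 1518 and 1147 normalized counts in MG WT, 3881, 6641, 5082 and 2662 in MG N, 1824, 2998, 2064 and 3183 in MG NP, 254, 172, 1123 and 217 in T N and 213, 194, 646 and 351 in T NP. The glands of tumor-bearing mice were above the wild-type glands, and all tumors but T N replicate 3 were below them. *Adamts5* rose in MG N (1.97 ± 0.33, adjusted p 0.00128) and MG NP (1.15 ± 0.29, adjusted p 0.0155) against MG WT, the latter not called at 0.89 without MG WT replicate 1 or at 0.82 without MG NP replicates 2 and 4, its highest MG NP glands. It fell in T N against MG N (-3.74 ± 0.57, adjusted p 0.000929) and T NP against MG NP (-2.97 ± 0.38, adjusted p 0.000311). *Adamts8* had 377, 155 and 359.6 in MG WT, 44.6, 168, 87.3 and 29.9 in MG N, 50.5, 39.967, 99.6 and 18.1 in MG NP, 194, 109.6, 200.96 and 197 in T N and 396, 561, 552 and 718 in T NP. The T NP tumors were the highest samples, all of them above all T N tumors. *Adamts8* fell in MG N against MG WT (-2.03 ± 0.59, adjusted p 0.0174), with overlapping groups and a call lost at -1.81 without MG WT replicate 1 and -1.84 without MG WT replicate 3, and in MG NP against MG WT (-2.63 ± 0.59, adjusted p 0.00948). It rose in T NP against MG NP (3.60 ± 0.47, adjusted p 0.000325) and was not called in T N against MG N (1.34 ± 0.52, adjusted p 0.0559), where it was called at 1.78 without MG N replicate 2 and 1.55 without T N replicate 2.

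*Adamts20* had 304, 183.04 and 267 normalized counts in MG WT, 59.9, 126, 202 and 103 in MG N, 194, 213, 153 and 259.6 in MG NP, 3.41, 1.05, 20.2 and 9.34 in T N and 1.12, 0, 2.60 and 3.75 in T NP. This versican-cleaving protease was near absent from tumors, with T N replicate 3 the highest of them. *Adamts20* fell in T N against MG N (-4.08 ± 0.72, adjusted p 0.00187), and in T NP, where no library had more than 3 reads, it was at least 52.5-fold lower than in MG NP (adjusted p 2.94e-05, lower in 4 of 4 tumors). Its fall in MG N against MG WT (-1.13 ± 0.39, adjusted p 0.0358) came with overlapping groups and was lost at -0.97 without MG WT replicate 1, -1.07 without MG WT replicate 3, -0.83 without MG N replicate 1, -1.18 without MG N replicate 2 and -1.09 without MG N replicate 4. *Adamts9*, which cuts versican, ranged from 2159.6 to 6067 in glands and from 222 to 1318 in tumors, where T N replicate 4 was the highest. It fell in T N against MG N (-3.10 ± 0.56, adjusted p 0.00217) and T NP against MG NP (-3.19 ± 0.23, adjusted p 2.11e-05). *Adamts15* ranged from 745 to 2589 in glands and from 308 to 1779 in tumors and was not called in these 4 comparisons. In MG NP against MG WT it was past the p threshold but under 2-fold (-0.94 ± 0.24, adjusted p 0.0171), and was called at -1.11 without MG NP replicate 3.

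The procollagen N-propeptidases trim the amino ends of fibrillar procollagens. *Adamts3* had 1791, 1109.9 and 1916 normalized counts in MG WT, 302, 399, 677 and 180.2 in MG N, 363, 204, 309 and 154 in MG NP, 1257, 912, 1427 and 2683 in T N and 1066, 1248, 772 and 1013 in T NP. Wild-type glands and tumors overlapped, and the glands of tumor-bearing mice were all below both. *Adamts3* fell in MG N (-2.16 ± 0.41, adjusted p 0.00246) and MG NP (-2.68 ± 0.34, adjusted p 0.00108) against MG WT and rose in T N against MG N (2.05 ± 0.44, adjusted p 0.00484) and T NP against MG NP (2.05 ± 0.29, adjusted p 0.000493). *Adamts2* ranged from 847 to 1461 in MG WT, 2158 to 6620.0 in MG N, 1179.8 to 1772 in MG NP and 506 to 1905 in tumors. It rose in MG N against MG WT (1.56 ± 0.38, adjusted p 0.00850) and fell in T N against MG N (-1.93 ± 0.47, adjusted p 0.00892), while T NP against MG NP was under 2-fold (-0.83 ± 0.28, adjusted p 0.0345) and was called at -1.02 without T NP replicate 4. *Adamts14* ranged from 94.7 to 149 in MG WT, 178 to 789.6 in MG N, 133 to 386 in MG NP and 17.042 to 218 in tumors. It rose in MG N against MG WT (1.61 ± 0.47, adjusted p 0.0178), a call lost at 1.46 without MG WT replicate 1 and 1.59 without MG WT replicate 2. In the tumors *Adamts14* fell in T N against MG N (-2.39 ± 0.77, adjusted p 0.029), with overlapping groups. That call was lost at -2.01 without MG N replicate 2, -2.27 without MG N replicate 4 and -2.26 without T N replicate 2. *Adamts14* also fell in T NP against MG NP (-1.87 ± 0.37, adjusted p 0.00272).

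The fibroblast sums given above had their highest median in MG N, and 6 of 8 fibroblast markers were called higher in MG N against MG WT and 6 of 8 lower in T N against MG N. In T NP against MG NP, 4 of the 7 that passed the filter were called lower, and 3 of 8 were called higher in MG NP against MG WT. Their part in the levels of *Mmp2*, *Mmp3*, *Mmp19*, *Adamts2* and *Adamts5* was not tested. The 6 endothelial markers, led by *Vwf* in MG WT and *Pecam1* elsewhere, summed to 20790, 26390 and 23354 in MG WT, 21810, 31427, 17964 and 19129 in MG N, 29835, 18386, 14994 and 19504 in MG NP, 3481, 3908, 5903 and 3605 in T N and 3350.0, 3261, 5132 and 3622 in T NP. All 6 were called lower in T N against MG N and in T NP against MG NP, none was at 0, and their part in the falls of *Adamts1*, *Adamts9* and other members was not tested.

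Among the remaining ADAMTS proteases, *Adamts18* had 2966, 1306 and 2428 normalized counts in MG WT, 82.8, 557, 859 and 177 in MG N, 179, 124, 451 and 106 in MG NP, 1.14, 3.16, 9.09 and 63.0 in T N and 4.48, 2.44, 0 and 0 in T NP. The wild-type glands, the other glands and the tumors formed 3 levels without overlap, with T N replicate 4 the highest tumor. *Adamts18* fell in MG N (-2.86 ± 0.75, adjusted p 0.0114) and MG NP (-3.54 ± 0.53, adjusted p 0.00194) against MG WT and again in T N against MG N (-5.06 ± 1.11, adjusted p 0.00537) and T NP against MG NP (-6.45 ± 0.69, adjusted p 0.000126). The 8 basal epithelial markers, led by *Acta2* or *Myh11* with none at 0, formed the same 3 levels, at 69541, 58751 and 72055 in MG WT, 11747, 17926, 23968 and 10369 in MG N, 19768, 16381, 20838 and 9256 in MG NP, 2092, 1348, 5056 and 1431 in T N and 2134, 1985, 3446 and 3255 in T NP, and their part in it was not tested. *Adamts19* had 17.9, 3.90 and 38.8 in MG WT, 177, 291, 83.6 and 115 in MG N, 55.3, 114, 73.7 and 38.7 in MG NP, 4.54, 1.05, 14.1 and 2.33 in T N and 1.12, 4.88, 1.30 and 0 in T NP. Its highest values were in MG N glands, and no tumor reached any of the glands with the same fibroblast p53. *Adamts19* rose in MG N against MG WT (3.28 ± 0.71, adjusted p 0.00445) and fell in T N against MG N (-4.94 ± 0.65, adjusted p 0.000496) and T NP against MG NP (-4.84 ± 0.57, adjusted p 0.000202). Its rise in MG NP against MG WT (2.1001 ± 0.72, adjusted p 0.0459) came with overlapping groups, and the call was lost at 2.25 without MG WT replicate 1, 1.27 without MG WT replicate 2, 2.18 without MG NP replicate 1, 1.83 without MG NP replicate 2 and 2.04 without MG NP replicate 3.

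*Adamts12*, which cuts cartilage oligomeric matrix protein, had 1052, 1549 and 1196 normalized counts in MG WT, 4733, 7823, 5559.6 and 5786 in MG N, 1989, 2639, 2947 and 2350.2 in MG NP, 815, 705, 1569 and 1064 in T N and 632, 808, 1004 and 835 in T NP. The MG N glands were the highest samples, and the MG NP glands lay between them and the wild-type glands. *Adamts12* rose in MG N against MG WT (2.23 ± 0.20, adjusted p 4.69e-05) and fell in T N against MG N (-2.57 ± 0.26, adjusted p 0.000172) and T NP against MG NP (-1.60 ± 0.18, adjusted p 0.000154). In MG NP against MG WT it was just under 2-fold (0.97 ± 0.19, adjusted p 0.00566), and was called at 1.13 without MG WT replicate 2 and 1.08 without MG NP replicate 1. *Adamts7*, with the same substrate, ranged from 103 to 698 in glands and from 177 to 1127 in tumors. It fell in MG NP against MG WT (-1.48 ± 0.41, adjusted p 0.0226), a call lost at -1.31 without MG WT replicate 1 and -1.45 without MG WT replicate 3 and at -0.88 without MG NP replicates 2 and 4, and in MG N against MG WT it was under 2-fold (-0.94 ± 0.25, adjusted p 0.0107) but called at -1.15 without MG WT replicate 2, -1.06 without MG N replicate 2 and -1.02 without MG N replicate 3. The tumor comparisons of *Adamts7* were not called, with log2 fold changes of 0.81 in T N against MG N, where it was called at 1.31 without T N replicate 1, and 0.66 in T NP against MG NP.

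*Adamts17* ranged from 218 to 358 normalized counts in MG WT, 27.1 to 164 in the other glands and 67.3 to 252 in tumors. It fell in MG N against MG WT (-1.84 ± 0.26, adjusted p 0.000544) and in MG NP against MG WT (-1.97 ± 0.58, adjusted p 0.0266), the latter call being lost at -1.83 without MG WT replicate 1, -1.89 without MG WT replicate 2, -2.19 without MG WT replicate 3 and -1.91 without MG NP replicate 2. In T N against MG N it was under 2-fold (0.95 ± 0.30, adjusted p 0.0274) and called at 1.01 without MG N replicate 2, 1.01 without MG N replicate 3, 1.01 without T N replicate 1 and 1.09 without T N replicate 4. *Adamts16* ranged from 2.56 to 6.20 in MG WT, 4.77 to 63.3 in the other glands and 3.66 to 136 in tumors. It rose in MG N against MG WT (2.44 ± 0.37, adjusted p 0.000747), while in MG NP against MG WT it was not called (2.16 ± 0.78, adjusted p 0.0551), though it was at 2.83 without MG NP replicate 1, at 2.81 with edgeR and at 2.84 with DESeq2. *Adamts10*, a partner of fibrillin microfibrils, ranged from 706 to 2068 over all samples and had log2 fold changes of -0.01, -0.07, -0.22 and 0.03 in the 4 comparisons in the same order, none called. *Adamts13*, the protease of von Willebrand factor, ranged from 0 to 67.2 in glands and from 0 to 3.66 in tumors and did not pass the filter in the tumor comparisons.

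A skeletal muscle score was also tried as a covariate in the comparisons with MG NP. Between MG NP and MG WT, and between T NP and MG NP, the muscle sums did not overlap, and the group held 84.5% and 66% of the variance of the score, so this fit separates muscle RNA poorly from the group and a call lost in it is not read as a property of the member. In MG NP against MG WT it called 2 members higher and 3 lower, beside 754 and 1106 of all genes, which were 3136 and 3081 without the score. In T NP against MG NP it called 3 and 17, beside 1652 and 2636 of all genes, which were 2625 and 4300 without it.

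Other alternatives changed calls as well. With MG NP replicates 2 and 4 left out together, a removal chosen after seeing the data, MG NP against MG WT lost *Adamts5* (0.82), *Adamts7* (-0.88) and *Adamts19* (2.07) and gained *Adamts6* (1.09) and *Adamts14* (1.49), and T NP against MG NP lost *Mmp15* (0.90). DESeq2 gained *Adamts14* (1.01), *Mmp28* (1.19) and *Adamts16* (2.84) in MG NP against MG WT, edgeR gained *Adamts16* and lost *Adamts19* (1.82), and both lost *Mmp23* in T N against MG N (-1.45 and -1.43), where edgeR also lost *Mmp25* (-1.73). The fit of all 5 groups, which shares 1 variance among them, keeps each fold. It lost *Mmp23* and *Adamts20* in MG N against MG WT, *Adamts5* in MG NP against MG WT and *Mmp25* in T N against MG N. It gained *Mmp12* and *Adamts8* in T N against MG N, *Adamts4* in T NP against MG NP and *Adamts12* in MG NP against MG N. With no filter on low counts, *Adamts19* was lost in MG NP against MG WT and *Mmp25* in T N against MG N.

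Between genotypes, limma called 0 of the 38 members tested in MG NP against MG N, where 0% of all genes were called higher and 0% lower. An unadjusted p under 0.05 was found for 10 members. The share of all genes under 0.05 was not counted, here or in the comparisons below. Such counts are therefore not read as a result about the members. DESeq2 on recovered reads called 0 members higher and 3 lower (*Mmp3*, *Adamts2* and *Adamts12*), beside 404 higher and 115 lower of all 18563 genes, and edgeR called 0 genes. The median log2 fold change was -0.49 over the members tested, beside -0.02 over all genes. The smallest p of a member was that of *Adamts12*, at 0.000114, with a log2 fold change of -1.26 and an adjusted p of 0.305, lower in 4 of 4 MG NP glands. In the limma fit of all 5 groups *Adamts12* was called at the same fold (adjusted p 0.0496), beside 12 higher and 4 lower of all genes. *Mmp3* had a log2 fold change of -1.39 (p 0.00224) and likewise did not overlap. Without MG NP replicate 3, limma called 3 members lower: *Mmp3* at -1.70, *Adamts4* at -1.63 and *Adamts12* at -1.35, beside 297 higher and 21 lower of all 18910 genes. The muscle sums of MG NP replicates 1, 2 and 4 move with this comparison, where limma called 0 of all genes with the muscle score as a covariate, and 0 with MG NP replicates 2 and 4 left out together. The last fit kept MG NP replicate 1 and so did not remove muscle RNA.

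Other tissue shares move with this comparison too, and the MG N group joins 2 genotypes. The 8 fibroblast markers had a median log2 fold change of -1.15, with 5 of 8 at an unadjusted p under 0.05 and 0 called. For the 8 white adipocyte markers the median was -0.83, with 4 of 8 under 0.05 and 0 called. Their part in the values of *Mmp3*, *Adamts2*, *Adamts4* and *Adamts12* was not tested.

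In the tumors, limma called 0 of 33 members in T NP against T N, where 0.0361% of all genes were called higher and 0.00601% lower, and 3 members had an unadjusted p under 0.05. DESeq2 called 1 member higher (*Adamts8*) and 1 lower (*Adamts6*), beside 51 higher and 34 lower of all 16638 genes, and edgeR called 0 genes. *Adamts8* had a log2 fold change of 1.67 ± 0.27 with an unadjusted p of 0.000157 and an adjusted p of 0.234, higher in 4 of 4 T NP tumors, whose counts are given above. T NP replicates 1 and 2 may share an animal, and with them averaged limma called 0 members and 0 of all genes. *Adamts6* had 111, 182.55 and 119 normalized counts in MG WT, 228, 159, 157 and 273 in MG N, 301, 174, 273 and 238 in MG NP, 55.7, 902, 274 and 151 in T N and 67.3, 42.7, 55.9 and 36.2 in T NP. T N replicate 2 was far above the other tumors and T N replicate 1 lay within the T NP range. This protease linked to fibrillin fell in T NP against MG NP (-2.27 ± 0.28, adjusted p 0.000266), was not called in T N against MG N (0.11 ± 0.73, adjusted p 0.914) and had a log2 fold change of -2.10 in T NP against T N (p 0.0184, adjusted p 0.669). In MG NP against MG WT it was under 2-fold (0.84 ± 0.28, adjusted p 0.0390), and called at 1.06 without MG WT replicate 2 and 1.0001 without MG NP replicate 2.

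An interaction over 16 samples tested if the change from gland to tumor depended on the fibroblast p53. MG N replicates 2 to 4 and the T N tumors also differed in Cre and in the p53wm-R172H allele, which the interaction cannot separate. With limma, 0 of 39 members were called, where 0% of all genes were called higher and 0% lower, and 4 members had an unadjusted p under 0.05. DESeq2 called 1 member lower (*Adamts6*), beside 50 higher and 277 lower of all 19367 genes, and edgeR called 0 genes. Among members not at the floor in any group, the largest interactions by size were those of *Adamts6* (-2.38, p 0.0112) and *Adamts8* (2.26, p 0.00721). Their adjusted p were 0.518 and 0.506. *Adamts20* (p 0.0248, adjusted p 0.556) was at the floor in T NP, so the size of its interaction is not exact and was not ranked. With limma, calls made with 1 fibroblast p53 alone, such as that of *Adamts8* in T NP against MG NP, were therefore not shown to differ from the other. That of *Adamts6* was called to differ with DESeq2 alone, not with limma or edgeR. T N replicate 2, at 902, stood far above the other T N tumors for *Adamts6*.

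Transcripts of some cartilage genes were a further feature of the tumors, and *Comp* among these genes is a substrate of these proteases. The sum of 8 cartilage markers was 628, 1126 and 647 normalized counts in MG WT, 7208, 316, 589 and 214 in MG N, 826, 986, 2263 and 199 in MG NP, 92584, 49551, 125310 and 106760 in T N and 90669, 96341, 52057 and 65209 in T NP. *Col9a1* was the most abundant in MG N, MG NP and both tumor groups and *Col11a1* in MG WT, while *Matn1* was at 0 in both tumor groups, *Acan* and *Matn3* in MG N and *Matn3* in MG NP. Of the 4 cartilage markers that passed the filter, 4 were called higher in T N against MG N and 4 in T NP against MG NP. The other 4 of the 8 were not tested, and the filter could be passed through the tumors alone. Of the substrates followed below, *Comp* was the 1 called higher in T N against MG N, so *Col2a1* and *Acan* were not. *Mmp13* and *Mmp16* rose in the same comparisons, and the part of cartilage-like RNA in that was not tested.

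Genes that activate, hold in check or serve as substrates of these proteases were followed in a list of 52. Of the 50 tested in MG N against MG WT, 17 were called higher and 10 lower, against 19.1% and 17.9% of all genes, with the largest rises in *Ncan* (5.13), *Pcolce2* (4.07) and *Col3a1* (2.90) and the largest falls in *Col2a1* (-3.18), *Papln* (-2.49) and *Serpinf2* (-2.40), all as log2 fold changes. By list, 2 were higher and 3 lower of 9 activators and plasmin system genes, 5 and 2 of 16 inhibitors, cofactors and uptake receptors, 4 and 1 of 10 ADAM proteases, and 6 and 4 of 15 substrates. Of the 48 tested in MG NP against MG WT, 9 were called higher and 12 lower, against 16.4% and 16.2% of all genes, led by *Pcolce2* (3.53), *Pcsk6* (2.53) and *Adam28* (1.75) and by *Col2a1* (-2.94), *Papln* (-2.57) and *Fbn2* (-2.35). These were 1 higher and 3 lower of 9 activators, 3 and 2 of 15 inhibitors and cofactors, 3 and 1 of 10 ADAM proteases, and 2 and 6 of 14 substrates.

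Among tumors the falls outnumbered the rises in this list, and over all genes as well. In T N against MG N, 5 of 47 were called higher and 24 lower, against 12.8% and 22.3% of all genes, with *Comp* (6.40), *Papln* (4.18) and *Serpine2* (3.69) rising and *Pcolce2* (-5.92), *Dcn* (-5.54) and *Spock2* (-4.88) falling the most. The lists gave 2 higher and 4 lower of 8 activators, 2 and 9 of 16 inhibitors and cofactors, 0 and 4 of 10 ADAM proteases, and 1 and 7 of 13 substrates. In T NP against MG NP, 8 of 46 were called higher and 21 lower, against 14.7% and 24% of all genes, led by *Comp* (6.21), *Papln* (4.56) and *A2m* (3.26) and by *Spock2* (-5.20), *Dcn* (-5.01) and *Pcolce2* (-4.81). Here 2 were higher and 4 lower of 8 activators, 4 and 8 of 15 inhibitors and cofactors, 0 and 4 of 10 ADAM proteases, and 2 and 5 of 13 substrates. *Papln* encodes papilin, an ADAMTS-like matrix protein, and *Comp* a substrate of ADAMTS7 and ADAMTS12. Between genotypes limma called 0 of these genes, with 13 at an unadjusted p under 0.05 in MG NP against MG N, 4 in T NP against T N and 3 in the interaction. The share of all genes at such a p was not counted beside these.

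On chromosome 9, 9 *Mmp* members lie together from position 7272514 to 7699585 of GRCm38, a stretch of 427072 bases that holds *Mmp13*, *Mmp12*, *Mmp1b*, *Mmp3*, *Mmp10*, *Mmp8*, *Mmp27*, *Mmp20* and *Mmp7* in this order. Some members of the cluster moved in different directions: against MG WT, *Mmp13* fell and *Mmp3* rose in MG N, and in the tumors *Mmp13* rose while *Mmp3* fell. The adjacent *Mmp13* and *Mmp12* both rose in T NP against MG NP. *Adamts1* and *Adamts5* are neighbors on chromosome 16, 53059 bases apart, and moved in opposite directions against MG WT, while both fell in T N against MG N and in T NP against MG NP. *Adamts15* and *Adamts8*, also on chromosome 9, have 20109 bases between them, and *Adamts8* was called in 3 of the 4 comparisons and *Adamts15* in 0 of the 4.

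**Figure D4:**
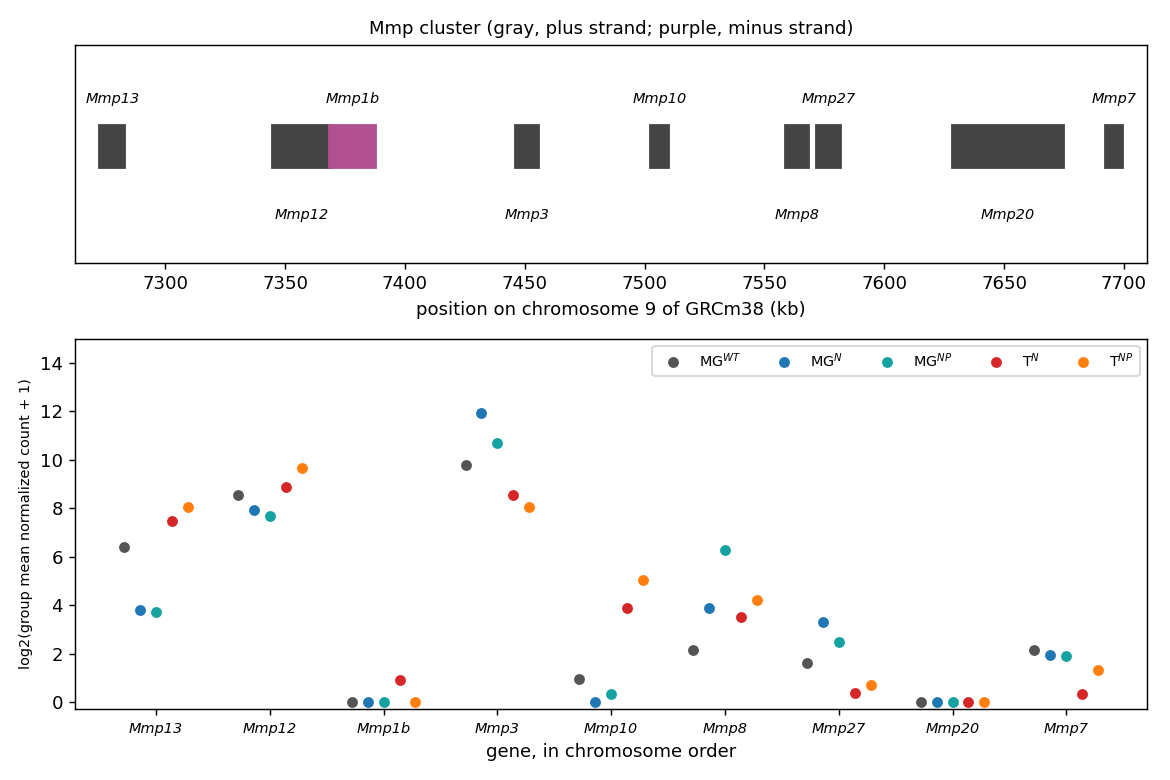
Positions of the 9 clustered *Mmp* genes on chromosome 9 and log2 group mean levels of each. Mean *Mmp3* was highest in MG N, at 3949, and mean *Mmp13* was 179 in T N and 266 in T NP, where replicate 4 had 619.

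The promoters of *Mmp3* and *Mmp13*, which moved in different directions, and of *Mmp10* are shown because they hold the same pair of motifs, and that of *Adamts1* as a member outside the cluster. RefSeq promoter sequences (build GRCm38.p6) matched 31 of the 45 members, and the 250 bases before each start given by RefSeq, which is not always that of the gene model used for the positions above, were searched on both strands. The AP-1 letters TGANTCA occurred in 6 of 31 members (*Mmp1b*, *Mmp3*, *Mmp7*, *Mmp10*, *Mmp13* and *Mmp20*, all in the cluster) and in 6.868% of 27025 promoters. The TATA box letters TATAAA occurred in 8 of 31, those 6 with *Mmp21* and *Adamts1*, and in 12.97% of all promoters, and the cyclic AMP response letters TGACGTCA in 0 of 31 and in 1.624%. No pair of these motifs overlaps in the sequences below, where capitals mark both the AP-1 and the TATA box letters. *Mmp3* is at chr9:7445572-7445821, plus strand, with the AP-1 letters from -46 to -40 before the start, *Mmp10* at chr9:7502092-7502341, plus strand, with them from -63 to -57, *Mmp13* at chr9:7272264-7272513, plus strand, with them from -35 to -29, and *Adamts1*, which holds the TATA box letters alone, at chr16:85803114-85803363, minus strand.
Mmp3: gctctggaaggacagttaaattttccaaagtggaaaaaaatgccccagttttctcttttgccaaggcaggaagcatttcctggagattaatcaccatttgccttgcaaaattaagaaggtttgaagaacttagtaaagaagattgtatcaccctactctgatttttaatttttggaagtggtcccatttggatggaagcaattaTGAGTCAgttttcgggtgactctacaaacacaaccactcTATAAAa
Mmp10: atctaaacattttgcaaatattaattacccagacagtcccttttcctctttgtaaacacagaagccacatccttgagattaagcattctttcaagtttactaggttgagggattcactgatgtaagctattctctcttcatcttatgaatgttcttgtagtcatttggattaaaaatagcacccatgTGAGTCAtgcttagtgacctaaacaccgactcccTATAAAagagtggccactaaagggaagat
Mmp13: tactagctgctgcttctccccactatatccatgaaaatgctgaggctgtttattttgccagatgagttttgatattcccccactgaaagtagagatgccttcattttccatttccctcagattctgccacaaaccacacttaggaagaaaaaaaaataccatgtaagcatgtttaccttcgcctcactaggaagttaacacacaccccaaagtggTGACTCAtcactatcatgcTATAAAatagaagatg
Adamts1: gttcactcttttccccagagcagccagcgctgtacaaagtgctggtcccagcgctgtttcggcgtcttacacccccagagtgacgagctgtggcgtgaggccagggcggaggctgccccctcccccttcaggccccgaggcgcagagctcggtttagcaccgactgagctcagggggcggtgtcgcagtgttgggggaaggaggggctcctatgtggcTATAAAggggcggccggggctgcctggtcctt

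A match is a description of letters in this window and not a bound site. Levels of the 3 clustered genes shown differed: *Mmp10* stayed near 0 in glands, *Mmp13* was lower in MG N than in MG WT, and *Mmp3* was higher there.

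Counting across overlapping genes leaves some values uncertain, since it was not stated whether reads were counted by strand. Exons of *Mmp19* share 22.3% of their length with *Tmem198b* on the opposite strand, and those of *Timp3* share 21.3% with *Syn3*. The shares were 13.6% for *Mmp24*, 12.0% for *Mmp28*, 11.5% for *Mmp7*, 10.8% for *Mmp1b* (with *Mmp12*), 10.6% for *Adamts8*, 9.18% for *Adamts9*, 5.58% for *Mmp11*, 3.56% for *Adamts4*, 1.94% for *Adamts7* and 1.53% for *Timp4*, each with a gene on the opposite strand.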

How the data were processed

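RNA-seq of 19 mouse samples was described from 1 deposited table of normalized counts (unit signal), made by the authors, who aligned reads to GRCm38 (mm10) with TopHat2 2.1.1 and Bowtie2. The labels name a stranded total RNA kit and the paper's methods an mRNA kit, and neither the counting strand nor the annotation used for counting was stated. Dividing each library by its scaling step gave whole reads for 100% of values at a tolerance of 0.05 reads. GENCODE vM21 gave symbols, biotypes and exon lengths, matched 45143 of 46078 identifiers (97.97%) and left 935 unmatched.

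Log2(normalized count + 1) was fitted in R 4.3.3 with limma 3.58.1 (lmFit, eBayes with a trend), using the 2 groups of each of 6 comparisons, and an interaction over 16 samples. Genes needed at least 10 normalized counts in as many samples as the smaller group had. P-values were adjusted by Benjamini-Hochberg over all genes tested, and genes were called at an adjusted p under 0.05 and a 2-fold change. A group with no library above 3 reads was at the floor. Alternatives were pseudocounts of 0.5 and 5, no filter and a filter at a mean of 50, TMM scaling, edgeR 4.0.16, DESeq2 1.42.0, no fold threshold, all 5 groups in 1 fit, a replicate block, each library left out, T NP replicates 1 and 2 averaged, and a skeletal muscle score as a covariate.

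Values in every sample were given for up to 4 called members that rose most and 4 that fell most in a comparison, for 12 members whether called or not (*Mmp2*, *Mmp3*, *Mmp9*, *Mmp11*, *Mmp13*, *Mmp14*, *Timp1* to *Timp4*, *Adamts1* and *Adamts5*), and for the 5 with the highest level per kb in glands and in tumors. *Mmp8* in MG NP, *Adamts6* and *Adamts12* were added after seeing the data. The members and lists were chosen with earlier results of these data known.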

Additional observations from a re-analysis of the deposited data

Results flagged for a closer look

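In groups of 4 samples, the highest or lowest value of a member was set apart when its gap to the nearest other sample, as a share of the range of the group, was above Dixon's critical value. This held in 7 of 151 groups (4.64%), and chance flags about 1 in 20 groups.

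*Mmp3* was high in MG N replicate 3, at 4923 normalized counts against 3527 to 3677 in the other MG N glands. *Mmp17* was low in T NP replicate 2, at 22.0 against 35.0 to 38.1. *Mmp19* was low in T NP replicate 1, at 91.9 against 122 to 129. *Mmp23* was high in T N replicate 3, at 358.5 against 45.3 to 62.5. For *Adamts4*, MG NP replicate 3 was high, at 309 against 72.3 to 83.9. For *Adamts8*, T N replicate 2 was low, at 109.6 against 194 to 200.96. For *Adamts17*, MG N replicate 1 was low, at 57.3 against 90.6 to 93.1.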

How the results depend on the processing

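Each tested member in each comparison was fitted again under every alternative that could give it a value, 5203 results in all. Of these, 5064 kept their side of the threshold, 81 lost a call, 56 gained one and 2 called results changed direction, a count that leaves out 274 changes of sign among results not called. For 2 of the 81, *Mmp3* at -3.39 and *Mmp19* at -3.22 in T N against MG N, DESeq2 gave no adjusted p, so they were not tested there rather than lost, though they count as not kept below. Of 87 called results, 73 stayed called with each library left out, 62 in every other alternative, and 76 in every other alternative when the muscle covariate and the joint removal of MG NP replicates 2 and 4 are set aside. That removal was chosen after seeing the data. A filter at a mean of 50 gave no value for members of low count. TMM scaling moved the median of all genes by at most 0.0258 on the log2 scale and changed the sign of 0 called members.

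Both called results that changed direction did so when a score of skeletal muscle was a covariate in MG NP against MG WT, *Adamts7* at 0.26 and *Adamts17* at 0.67, neither called there. In that fit 2 members were called higher and 3 lower, beside 754 and 1106 of all genes (3136 and 3081 without the score), and in T NP against MG NP 3 and 17, beside 1652 and 2636 (2625 and 4300 without it). The score did not overlap between these groups, so lost calls and changed signs there are not read as properties of single members. Without MG NP replicates 2 and 4, MG NP against MG WT gave 5 higher and 9 lower, beside 3599 and 3109 of all genes. In T NP against MG NP the counts were then 7 and 21, beside 2515 and 4556.

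In MG NP against MG WT, 8 members were called higher by DESeq2 and 8 with no fold threshold. Of all genes, 3977 and 4268 were called higher there, against 3136 in the main fit. With each library left out, 3 to 6 members were higher (3 without MG WT replicate 1) and 8 to 11 lower, beside 2404 to 3321 and 2524 to 3233 of all genes. In T N against MG N, 5 to 9 were higher (9 without MG N replicate 2) and 16 to 20 lower, beside 2083 to 2341 and 3661 to 4419 of all genes. In MG NP against MG N, DESeq2 called 3 lower, the fit of all 5 groups 1, and limma 0 to 3 with each library left out (3 without MG NP replicate 3). In T NP against T N, DESeq2 called 1 higher and 1 lower, and in the interaction 1 lower.

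With the replicate number as a replicate block, MG N against MG WT gave 12 members higher and 7 lower, beside 3511 and 3248 of all genes. The counts were 4 and 9 in MG NP against MG WT, beside 2467 and 2593 of all genes. They were 6 and 18 in T N against MG N (2181 and 3774 of all genes) and 8 and 19 in T NP against MG NP (2574 and 4123). In the others they were 0, for members and for all genes. Correlations between samples of equal number, after centering each group, ran from -0.251 to 0.289, so the numbers were not taken to pair animals.

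The limits are groups of 3 or 4 samples, bulk tissue of unlike composition, shared MG WT samples in 2 comparisons, MG N glands of 2 genotypes, 2 tumors with 1 shared library number, and MG WT libraries sequenced more deeply than the others. Transcript levels give neither protein amount nor protease activity.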
